A study of Mus musculus with 21 samples.

Results

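The comparison described here was that of rNLS8 mice with their controls in batch B of a bulk RNA sequencing series of mouse neocortex. Members were the libraries whose labels give batch B, and these were 14 of 21 libraries, 7 from mice labelled TG (rNLS8) and 7 from mice labelled WT (control). The 7 libraries of batch A were not used. rNLS8 mice are bigenic: the neurofilament heavy promoter drives the tetracycline transactivator (NEFH-tTA), which switches on human TDP-43 without its nuclear localization signal (tetO-hTDP-43ΔNLS) when doxycycline is absent, and this promoter is active in neurons. The design text calls the controls monogenic littermates, although their label reads WT, so a control may carry 1 of the transgenes. Both parent lines were B6;C3 lines backcrossed to C57BL/6J. Mice of both groups received 350 µg of the same non-targeting antisense oligonucleotide (non-targeting ASO) in 10 µL into a cerebral ventricle at 17 to 19 weeks of age, ate chow with doxycycline at 200 mg/kg until 2 weeks later, and were killed after 3 weeks on chow without it. There was no group without an ASO, and sex and litter were not labelled.

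TDP-43 is a nuclear RNA-binding protein that controls splicing, stability and transport of many neuronal transcripts and that holds its own mRNA at a set level. In most cases of amyotrophic lateral sclerosis it leaves the nucleus of neurons and collects in the cytoplasm, which the rNLS8 transgene is built to imitate. Misfolded protein, amino acid shortage or viral RNA can trigger the integrated stress response, in which phosphorylation of eIF2α lowers general translation while the transcription factor ATF4 is made and switches on genes for amino acid supply and stress adaptation.

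The deposited values were raw read counts for each gene symbol. Total counts were between 20700912 and 22263809 per mouse. Of 48474 rows, 33986 had at least 1 count in batch B and 18220 passed edgeR's filter by expression and were tested with its quasi-likelihood test. Values per mouse are normalized counts, that is counts divided by the TMM-scaled library size and multiplied by its mean, and groups of 7 mice are given as lowest, median and highest. Fold changes are log2 values of rNLS8 against control, followed by their standard error (SE), and all adjusted p-values come from this edgeR test with Benjamini-Hochberg adjustment over the 18220 genes. Each library came from 1 mouse. A gene is said to have risen or fallen where the adjusted p-value was under 0.05. Of 163 genes followed across the alternative settings, 8 would not have passed the filter on the control mice alone (Atf3, C3, Clec7a, Cst7, Eda2r, Itgax, Top2a and Trib3) and 2 not on the rNLS8 mice alone (Cacng6 and Lrg1). These genes entered the test through the group in which they were higher, so their values are a description.

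Tardbp, the mouse gene for TDP-43 (chr4:148612382-148627084, GRCm38.p6), was examined first as a check of the labels. Control mice had 2546, 2742 and 2868 normalized counts and rNLS8 mice had 4457, 4665 and 5094. The groups did not overlap, and the log2 fold change was 0.79 (SE 0.039, adjusted p = 1.42e-10). Reads were aligned to the mouse genome while the transgene is human, and the table has a further copy row for this symbol. The value may therefore hold an unknown part of the transgene's reads and says nothing on its own about the mouse transcript. Markers of cortical excitatory neurons were present in all libraries, with Slc17a7, the vesicular glutamate transporter of these neurons, between 24400 and 36992 normalized counts.

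Some libraries need mention before the results. Counts of Xist, which is made from the inactive X chromosome of females, were 4010 to 5766 in control replicates 3, 4 and 5 and 7151 in rNLS8 replicate 5. The Y-linked genes Ddx3y, Uty, Eif2s3y and Kdm5d were expressed in control replicates 1, 2, 6 and 7 and in rNLS8 replicates 2, 3, 4, 6 and 7. In rNLS8 replicate 1 all 5 genes were listed at 0 counts. By these genes 3 of 7 control mice and 1 of 7 rNLS8 mice had Xist, so genotype and sex were not balanced, and results were therefore recomputed with the level of Xist as a covariate and without rNLS8 replicate 1. On the first principal component, with 34.5% of the variance, the genotypes lay apart, with control mice between -25.1 and -21.9 and rNLS8 mice between 17.7 and 26.7, where rNLS8 replicate 1 was the lowest of its group.

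**Figure D1:**
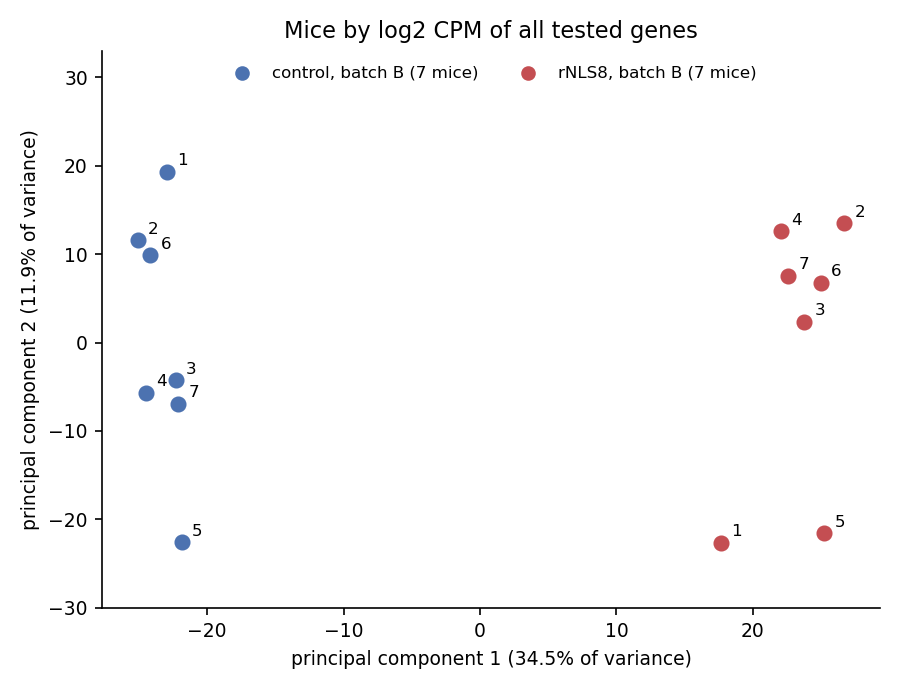
Position of the 14 mice on the first and second principal components of log2 CPM of all tested genes, each point 1 mouse, coloured by genotype, with replicate numbers. The genotypes are separated along component 1 (34.5% of the variance), and mice of both groups are spread along component 2 (11.9%).

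Across all genes, 7126 of 18220 differed between the genotypes, 3511 higher (19.3% of those tested) and 3615 lower (19.8%) in rNLS8 mice. Scaled by library size alone, without TMM factors, 5313 genes (29.2%) were higher and 2347 (12.9%) lower. Most of the changes were small. Of the 7126 genes, 5366 (75.3%) differed by less than 0.5 on the log2 scale and their median absolute log2 fold change was 0.32. Larger changes were mostly rises, with 222 genes higher and 91 lower by more than 1. Of the tested genes, 447 would not have passed the filter on the control mice alone and 319 not on the rNLS8 mice alone. The part of these genes in the larger changes was not tested. For 1434 genes every rNLS8 mouse was above every control mouse, and for 1566 every rNLS8 mouse was below. Outside the interferon and cholesterol lists, 3367 of 18002 genes rose and 3590 fell, of which 147 and 91 by more than 1. The 218 genes of those 2 lists held 144 rises and 25 falls. No gene had at least 3 counts in every mouse of one genotype and 0 in every mouse of the other.

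The balance of rises and falls depended on the scaling. TMM factors, which correct library sizes for composition, were 0.958 to 0.986 in control and 1.02 to 1.04 in rNLS8 mice, with no overlap (exact permutation test, two-sided, p = 0.000583, the smallest that 3432 assignments can give). With library size as the only scaling, 5313 genes rose and 2347 fell, 69.4% of calls being rises in place of 49.3%, and the median over all genes was 0.08 in place of -0.01. No gene changed its direction among those called by both scalings. Left out of the fit, rNLS8 replicate 1 left 3424 genes higher and 3514 lower, and with Xist as a covariate the counts were 3320 and 3427.

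**Figure D2:**
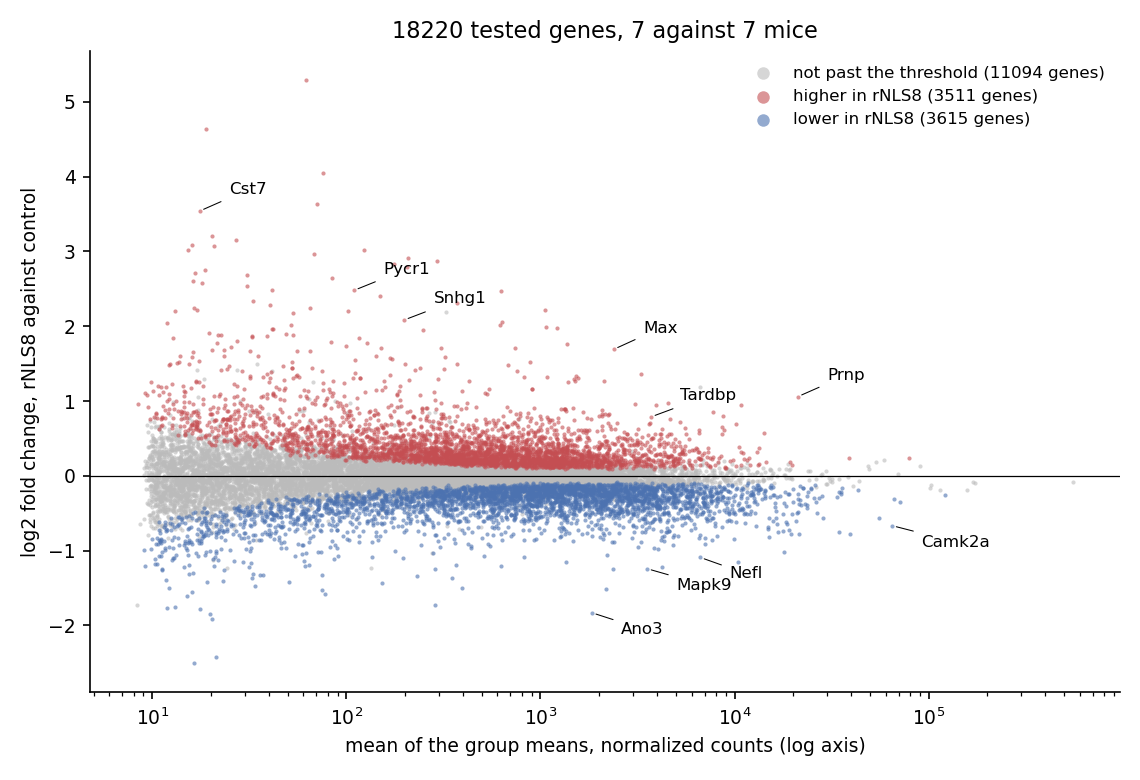
Log2 fold change of each of the 18220 tested genes (rNLS8 against control, vertical axis) against the mean of its group means in normalized counts (log axis), each point 1 gene, coloured by whether it was higher, lower or not past the threshold. The largest rises lie at low and middle counts, whereas falls prevail among the genes with the highest counts, such as Camk2a.

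Genes of the integrated stress response formed the group with the most uniform rise among the stress pathways examined. Of 35 tested members, 30 (85.7%) rose and none fell, compared with 19.3% and 19.8% of all genes (0 lower also at an unadjusted p under 0.05 and with DESeq2). Their median log2 fold change was 0.53, compared with -0.01 over all tested genes. Of the 30, Atf3 and Trib3 passed the filter through the rNLS8 mice, with 6 and 5 of 7 control mice over its minimum. Without rNLS8 replicate 1 the same number, 30, were higher. The 5 members that did not pass were Psat1, Slc7a11, Gars, Vldlr and Ddit4, between -0.13 and 0.06.

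Pycr1, a mitochondrial enzyme of proline synthesis (chr11:120638998-120643748) that was not on the list, had the largest rise of any gene named by the rule for large changes. It had 25.0, 29.8 and 45.2 normalized counts in control and 158, 175 and 265 in rNLS8 mice, with rNLS8 replicate 2 the highest. The log2 fold change was 2.48 (SE 0.14, adjusted p = 6.13e-10). Of the list, Stc2, the secreted glycoprotein stanniocalcin 2 (chr11:31359441-31370061), went from 10.5, 22.9 and 37.9 to 77.8, 97.7 and 164 (2.25, SE 0.23, adjusted p = 4.99e-07). Atf3, a stress-induced transcription factor (chr1:191170296-191183333), had 8.68, 17.9 and 26.3 normalized counts in control and 53.4, 79.0 and 141 in rNLS8 mice. In these genes every rNLS8 mouse lay above every control mouse.

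Chac1, which degrades glutathione (chr2:119351242-119354326), had 140, 159 and 175 normalized counts in control and 389, 477 and 646 in rNLS8 mice (1.59, SE 0.10, adjusted p = 1.51e-09). Mthfd2, an enzyme of mitochondrial folate metabolism (chr6:83305704-83326011), rose from 99.9, 127 and 149 to 274, 335 and 391 (1.41, SE 0.097, adjusted p = 4.00e-09). Trib3, a pseudokinase that binds ATF4, was low in control mice, with a median of 12.4 normalized counts, and reached 26.2, 32.0 and 47.3 in rNLS8 mice. None of the 3 overlapped between the groups.

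Other members were picked after their values had been seen, for their place in the pathway. Atf4 itself had 1936, 2085 and 2203 normalized counts in control and 3580, 4022 and 4680 in rNLS8 mice (0.97, SE 0.052, adjusted p = 3.48e-10). Ddit3, which encodes CHOP, rose by 1.11 (SE 0.077, adjusted p = 4.43e-09), from a median of 326 to 673. Slc7a3, a carrier of cationic amino acids, rose by 1.30 (SE 0.078, adjusted p = 9.11e-10), the translation repressor Eif4ebp1 by 1.16 (SE 0.13, adjusted p = 1.33e-06), the mTORC1 inhibitor Sesn2 by 1.14 (SE 0.089, adjusted p = 1.90e-08) and Shmt2, a mitochondrial enzyme of serine and folate metabolism, by 1.09 (SE 0.076, adjusted p = 4.33e-09). Each of these genes had its lowest rNLS8 mouse above its highest control mouse, as had 1434 of all 18220 tested genes. Slc7a11, the cystine carrier, had medians of 1121 and 1169 (-0.10, SE 0.087, adjusted p = 0.417).

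Aminoacyl-tRNA synthetases, which charge tRNAs with amino acids, were grouped after their values had been seen and share members with this list. Of 19 tested, 15 (78.9%) rose and 1 (5.26%) fell, compared with 19.3% and 19.8% of all genes, with a median of 0.34. Cars rose by 0.71 (SE 0.054, adjusted p = 1.48e-08) from 645, 709 and 810 to 1113, 1138 and 1305 normalized counts. Sars rose by 0.63 (SE 0.061, adjusted p = 2.45e-07) from 3041, 3369 and 3666 to 4773, 4868 and 6219. Neither gene's groups overlapped.

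ATF4 with a C/EBP partner binds a composite element, and the promoter sequences of the list were searched for its core, TGATGNAA, on both strands (TTNCATCA on the reverse) in the RefSeq GRCm38.p6 windows from 250 bases before to 50 after each start. A window was found for 28 of the 35 tested members, and 11 (39.3%) held the motif. Among all tested genes with a window it was 366 of 12646 (2.89%), and among all windows in the reference 1304 of 32851 (3.97%). The members were listed in part because ATF4 is known to bind them, so a higher share is no independent result. Shown are 60 bases on the gene's own strand around matches of 2 genes of the list that were higher, of Pycr1, which was not on the list, and of Vldlr, a member that holds the motif and had medians of 1650 in control and 1647 in rNLS8 mice (-0.07, SE 0.068, adjusted p = 0.453). Vldlr was chosen after its values had been seen. Slc7a11 and Gars, which also did not pass the threshold, held the motif as well. Some genes have more than 1 window, and positions are given from the start of the window that holds the match. Capitals mark the motif.
Pycr1 (chr11:120643818-120643877, minus strand): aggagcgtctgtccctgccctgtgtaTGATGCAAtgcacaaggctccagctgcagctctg
Atf3 (chr1:191183410-191183469, minus strand): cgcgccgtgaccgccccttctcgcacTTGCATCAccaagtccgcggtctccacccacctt
Chac1 (chr2:119351023-119351082, plus strand): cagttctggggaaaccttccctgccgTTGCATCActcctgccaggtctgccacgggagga
Vldlr (chr19:27216794-27216853, plus strand): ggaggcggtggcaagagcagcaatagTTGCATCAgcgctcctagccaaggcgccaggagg

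The first base of the motif lay at -103 from the start of Pycr1, -110 of Atf3, -193 of Chac1 and -200 of the second of 2 starts that the windows give for Vldlr. Aars, the alanyl-tRNA synthetase and a further member chosen after its values had been seen, rose by 0.53 (SE 0.056, adjusted p = 6.52e-07), from 3132, 3685 and 3922 to 4805, 5231 and 6031 normalized counts. A match is a description of these letters in this window and not of binding, which was not measured.

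Other stress pathways moved less. In the unfolded protein response of the endoplasmic reticulum 7 of 23 tested genes (30.4%) rose and 5 (21.7%) fell, compared with 19.3% and 19.8% of all genes, with a median of 0.03, and with library size alone 10 rose and 1 fell. Herpud1, which takes part in degradation of endoplasmic reticulum proteins, rose by 0.39 (SE 0.060, adjusted p = 4.26e-05) and the ubiquitin ligase Syvn1 by 0.33 (SE 0.053, adjusted p = 5.79e-05), while the folding factor Creld2 fell by 0.36 (SE 0.099, adjusted p = 0.00795). Hspa5, the chief chaperone of this compartment and chosen after its values had been seen, had medians of 4312 in control and 4151 in rNLS8 mice (-0.17, SE 0.081, adjusted p = 0.112). Of the 21 cytosolic heat shock chaperones none rose and 9 fell (median -0.16; at an unadjusted p under 0.05, 3 were higher and 11 lower, and DESeq2 called 0 and 8). Hsph1, a co-chaperone of HSP70, had 4740, 5576 and 6454 normalized counts in control and 3003, 3228 and 3582 in rNLS8 mice (-0.76, SE 0.059, adjusted p = 1.95e-08). Dnaja1 fell by 0.52 (SE 0.057, adjusted p = 9.61e-07). With library size alone 4 of these chaperones rose and 7 fell.

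Targets of p53 went both ways, 7 of 23 (30.4%) rising and 6 (26.1%) falling, compared with 19.3% and 19.8% of all genes, with a median of 0.04. Cdkn1a, the cell cycle inhibitor p21, rose by 0.75 (SE 0.11, adjusted p = 1.81e-05), with a further copy row in the table. Eda2r, a receptor of the TNF family, was low, with 3.98, 7.24 and 11.4 normalized counts in control and 15.4, 19.7 and 31.1 in rNLS8 mice; 1 of 7 control mice was over the minimum of the filter. Zfp365, which is abundant in neurons, fell from 12899, 13787 and 16519 to 5718, 6452 and 7042 (-1.15, SE 0.056, adjusted p = 9.72e-11), and Rprm, a marker of deep-layer cortical neurons as well as a p53 target, fell by 1.09 (SE 0.090, adjusted p = 3.74e-08). Among NRF2 targets 5 of 19 (26.3%) rose and 2 (10.5%) fell, and with library size alone 8 rose and 1 fell. Hmox1, which degrades heme, rose by 0.90 (SE 0.12, adjusted p = 1.09e-05) and the ferritin light chain Ftl1 by 0.64 (SE 0.050, adjusted p = 1.93e-08). The 2 that fell were Taldo1, an enzyme of the pentose phosphate pathway (-0.27, SE 0.057, adjusted p = 0.00108), and the glutathione transferase Gsta4 (-0.24, SE 0.082, adjusted p = 0.0243), which lost this call with library size alone, with Xist as a covariate and without control replicate 5 or rNLS8 replicate 6.

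**Figure D3:**
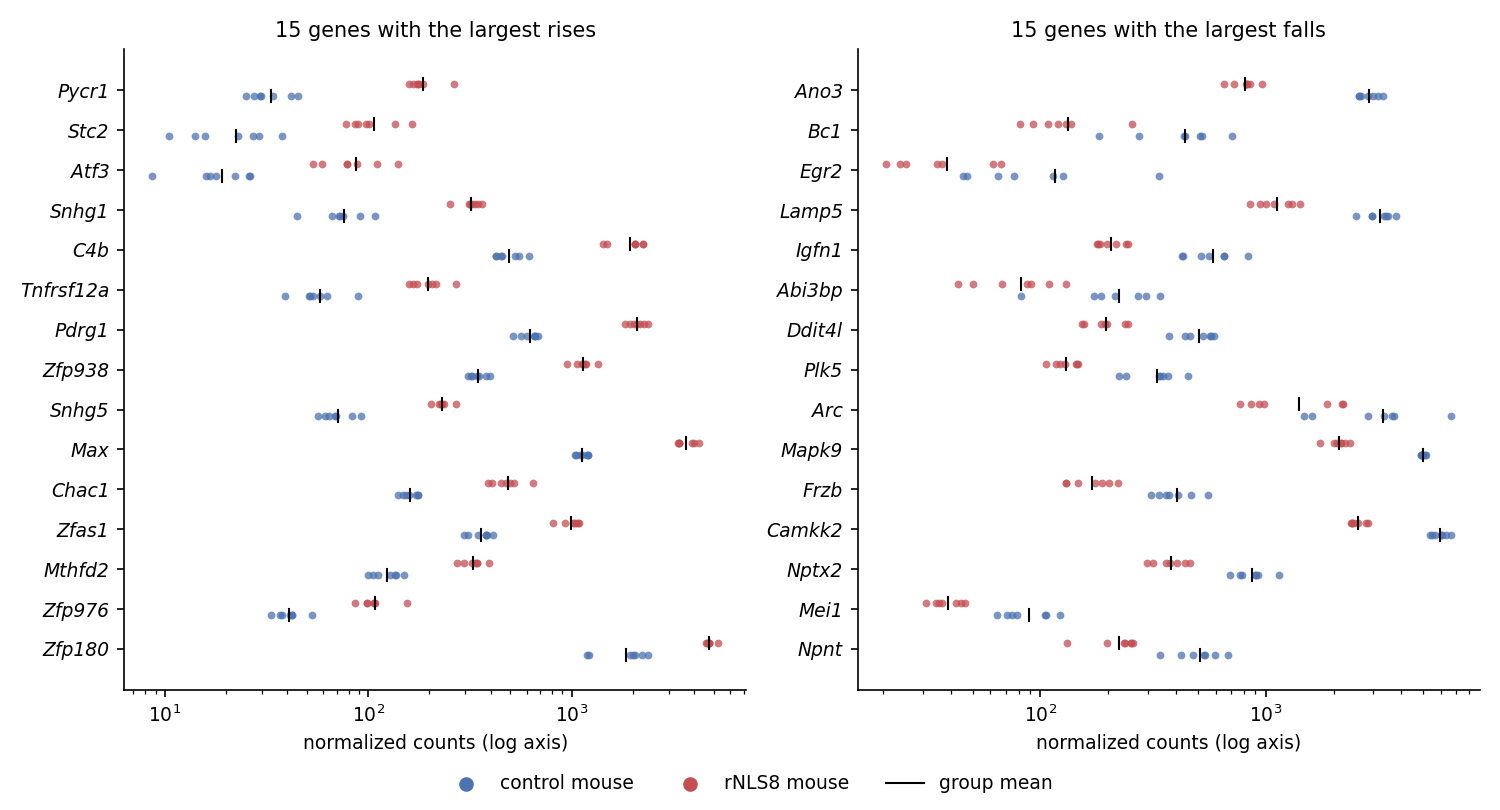
Normalized counts per mouse (log axis) of the 15 genes with the largest rise and the 15 with the largest fall under the naming rule, each point 1 mouse and each vertical line a group mean. The groups are apart in each of the 15 rises, whereas Bc1, Egr2, Abi3bp and Arc overlap between the groups among the falls.

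The remaining genes with large rises had other roles. C4b, complement component 4, had 425, 457 and 616 normalized counts in control and 1429, 2055 and 2237 in rNLS8 mice (1.97, SE 0.11, adjusted p = 5.23e-10); its near-identical copy C4a and further copy rows make the split of reads uncertain. Tnfrsf12a, the receptor of the cytokine TWEAK (chr17:23675445-23677449), rose by 1.77 (SE 0.15, adjusted p = 5.70e-08), from 38.8, 53.8 and 89.3 to 158, 196 and 269. Pdrg1, a prefoldin-like protein regulated by p53 and DNA damage (chr2:153008890-153016019), rose from 517, 652 and 685 to 1836, 2088 and 2384 (1.76, SE 0.068, adjusted p = 1.04e-11). All 3 were apart between the groups. Max, the partner of the MYC transcription factors (chr12:76937269-76962323), had the smallest p-value of all rises named, with 1036, 1126 and 1207 normalized counts in control and 3327, 3388 and 4205 in rNLS8 mice (1.69, SE 0.062, adjusted p = 7.61e-12). Prnp, the prion protein gene (chr2:131909928-131938436), rose from 12562, 13575 and 14882 to 25782, 28990 and 30239 (1.06, SE 0.047, adjusted p = 3.18e-11).

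Host genes of small nucleolar RNAs, whose spliced RNAs are short-lived and whose introns give the small RNAs that guide ribosomal RNA modification, were among the largest rises. Snhg1 (chr19:8723487-8726326) had 44.5, 72.5 and 108 normalized counts in control and 253, 325 and 363 in rNLS8 mice (2.08, SE 0.13, adjusted p = 1.83e-09). Snhg5 rose by 1.71 (SE 0.10, adjusted p = 7.16e-10) from 56.9, 68.4 and 92.4 to 202, 229 and 271, and Zfas1 by 1.48 (SE 0.079, adjusted p = 3.03e-10) from 295, 379 and 412 to 809, 1023 and 1092. Gas5 rose by 0.88 (SE 0.057, adjusted p = 1.97e-09) from a median of 1455 to 2731. In each of the 4 the lowest rNLS8 mouse was above the highest control mouse. All tested Snhg symbols with Gas5 and Zfas1, a group formed after values had been seen, numbered 18. In this group 10 (55.6%) rose and 1 (5.56%) fell, compared with 19.3% and 19.8% of all genes, with a median of 0.59. Further members chosen in that way were Snhg16 at 1.47 (SE 0.16, adjusted p = 7.39e-07), Snhg15 at 1.30 (SE 0.17, adjusted p = 6.27e-06) and Snhg12 at 0.89 (SE 0.079, adjusted p = 8.63e-08).

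Cytosolic ribosomal protein genes rose almost throughout. Of 82 tested, 71 (86.6%) rose, compared with 19.3% of all genes. None fell (0 lower at an unadjusted p under 0.05 and with DESeq2), and the median was 0.38. Their share of all counts was 1.15% ± 0.0467 (SD, n = 7) in control and 1.62% ± 0.131 (SD, n = 7) in rNLS8 mice (exact permutation test, two-sided, p = 0.000583), and no mice overlapped. Rpsa, a protein of the small subunit, had 6900, 7519 and 7764 normalized counts in control and 12781, 13856 and 16888 in rNLS8 mice (0.94, SE 0.057, adjusted p = 9.20e-10). Rps2 rose by 0.86 (SE 0.076, adjusted p = 8.46e-08), with rNLS8 replicate 2 far above the rest at 13139, Rplp1 of the ribosomal stalk by 0.80 (SE 0.047, adjusted p = 6.92e-10) and Rpl12 by 0.75 (SE 0.047, adjusted p = 1.18e-09). Genes of this family have many processed copies in the genome, and how the authors' counting split reads between them is not given in the sources used here. Of 78 mitochondrial ribosomal proteins 20 (25.6%) were higher and 13 (16.7%) lower, compared with 19.3% and 19.8% of all genes, with a median of 0.00, and with library size alone 29 were higher and 4 lower.

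Zinc finger genes, many of which encode KRAB repressors that silence transposable elements, included 3 of the 15 largest rises. Zfp938 (chr10:82224850-82241280) had 310, 343 and 399 normalized counts in control and 946, 1138 and 1348 in rNLS8 mice (1.71, SE 0.073, adjusted p = 1.78e-11). Zfp180 (chr7:24081877-24107709) rose from 1196, 2003 and 2368 to 4582, 4715 and 5239 (1.36, SE 0.12, adjusted p = 1.31e-07), and Zfp976 from 33.3, 41.3 and 52.6 to 85.9, 107 and 154 (1.40, SE 0.13, adjusted p = 1.64e-07). Zfp280b, among the smallest p-values, rose by 1.32 (SE 0.056, adjusted p = 1.78e-11). These 4 genes were apart between the groups. Formed after values had been seen, the family of 366 tested protein-coding genes with a Zfp symbol held 142 rises (38.8%) and 19 falls (5.19%). Over all genes these shares were 19.3% and 19.8%, and the median of the family was 0.13. With library size alone it held 198 rises and 12 falls. Many of these genes lie in clusters of similar copies, so reads may be shared among neighbours.

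Histone genes with H1f, H2ac, H2bc, H3c or H4c symbols, most of which belong to the clusters transcribed during DNA replication, were also grouped after values had been seen. Of 17, 13 (76.5%) rose and 2 (11.8%) fell, compared with 19.3% and 19.8% of all genes, with a median of 0.68. The rises were 11 with DESeq2, with Xist as a covariate and without rNLS8 replicate 1. The 2 that fell, H1f0 (-0.40) and H1f10 (-0.20), encode linker histones outside these clusters. H2bc6 rose by 1.30 (SE 0.13, adjusted p = 4.51e-07), from 48.4, 56.6 and 87.3 to 133, 143 and 209 normalized counts, and H3c15 by 1.24 (SE 0.14, adjusted p = 1.48e-06), from 40.2, 58.2 and 74.7 to 105, 139 and 166. Both were apart between the groups. Most transcripts of these genes lack a poly(A) tail, and the libraries were made after a step of mRNA isolation whose chemistry is not given in the sources used here. Of 18 cell cycle genes tested 7 (38.9%) rose and 3 (16.7%) fell, compared with 19.3% and 19.8% of all genes, and DESeq2 called 5 higher and 3 lower. Mki67, a marker of dividing cells, had 11.4, 13.7 and 45.6 normalized counts in control and 29.6, 37.5 and 46.6 in rNLS8 mice (0.98, SE 0.25, adjusted p = 0.00447), with control replicate 6 inside the range of the rNLS8 mice. Mcm7, a subunit of the replicative helicase, rose by 0.80 (SE 0.069, adjusted p = 6.63e-08). Top2a, counted among the 7 rises, passed the filter through the rNLS8 mice. The 3 that fell, named after their values had been seen, were Mcm5 of the same helicase (-0.39, SE 0.078, adjusted p = 0.000659), the cyclin Ccnd1 (-0.34, SE 0.053, adjusted p = 5.39e-05) and the replication clamp Pcna (-0.20, SE 0.052, adjusted p = 0.00485), which lost its call with library size alone.

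Turning to the falls, Ano3, an anoctamin of neurons (chr2:110655201-110950391), changed most among genes with a mean of at least 50 counts. It had 2582, 2855 and 3301 normalized counts in control and 649, 824 and 959 in rNLS8 mice (-1.83, SE 0.076, adjusted p = 1.77e-11). Lamp5, a membrane protein that marks groups of cortical neurons (chr2:136052025-136069917), fell from 2503, 3338 and 3772 to 853, 1088 and 1426 (-1.51, SE 0.11, adjusted p = 6.15e-09). Mapk9, which encodes the stress kinase JNK2 (chr11:49846728-49886421), fell from 4864, 4960 and 5164 to 1747, 2153 and 2364 (-1.24, SE 0.052, adjusted p = 1.77e-11). Camkk2, a kinase upstream of CaMKI, CaMKIV and AMPK (chr5:122718380-122779522), fell from 5363, 5974 and 6669 to 2386, 2471 and 2846 (-1.21, SE 0.056, adjusted p = 4.94e-11). In each of the 4 genes every rNLS8 mouse was below every control mouse. Tsnax, a partner of the RNA-binding protein translin (chr8:125013041-125034208), fell by 0.88 (SE 0.037, adjusted p = 1.77e-11), from 3934, 4253 and 4551 to 2202, 2342 and 2372.

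Several falls concerned lower or more variable genes. Igfn1 fell by 1.50 (SE 0.14, adjusted p = 1.10e-07), Ddit4l, an inhibitor of mTOR signalling, by 1.37 (SE 0.12, adjusted p = 6.51e-08), the polo-like kinase Plk5 by 1.34 (SE 0.14, adjusted p = 3.87e-07), the Wnt antagonist Frzb by 1.24 (SE 0.14, adjusted p = 1.39e-06) and the matrix protein Npnt by 1.19 (SE 0.15, adjusted p = 4.30e-06). Mei1, known from meiosis, fell to 0.436 times the control level (adjusted p = 5.41e-06). In these 6 genes no rNLS8 mouse reached the lowest control mouse. Bc1, a short noncoding RNA of neuronal dendrites (chr7:144914470-144914623), overlapped, with 183, 436 and 709 normalized counts in control and 81.0, 120 and 256 in rNLS8 mice (-1.73, SE 0.27, adjusted p = 4.97e-05). Abi3bp, an extracellular matrix protein, overlapped as well (-1.43, SE 0.27, adjusted p = 0.000311).

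Immediate early genes, which neurons transcribe within minutes of activity, were lower as far as they passed. Of 28 tested, 13 (46.4%) fell and none rose, compared with 19.8% and 19.3% of all genes (at an unadjusted p under 0.05, 1 was higher, and DESeq2 called 0). The median was -0.39. With library size alone 2 rose and 12 fell, and 1 rose without rNLS8 replicate 1. Arc, a regulator of AMPA receptor traffic (chr15:74669081-74672570), had 1485, 3348 and 6629 normalized counts in control and 772, 982 and 2213 in rNLS8 mice (-1.24, SE 0.31, adjusted p = 0.00405). Egr2 had 45.3, 76.0 and 337 against 20.6, 34.9 and 67.1 (-1.58, SE 0.42, adjusted p = 0.00580), where control replicate 5 gave the highest value, and it has a copy row. Both genes varied widely among control mice and overlapped between the groups. Egr1 did not overlap, with 3813, 4619 and 8235 against 1612, 2433 and 3638 (-0.96, SE 0.19, adjusted p = 0.000523). Nptx2, a secreted pentraxin of excitatory synapses, fell from 694, 893 and 1144 to 296, 376 and 460, or 0.434 times the control level (adjusted p = 1.01e-07), and Jun fell by 0.53 (SE 0.069, adjusted p = 6.91e-06).

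Genes of synaptic vesicle release showed falls in 22 of 30 tested members (73.3%), compared with 19.8% of all genes. None rose (0 higher at an unadjusted p under 0.05 and with DESeq2), and the median was -0.34. Snap25, a SNARE protein of the presynaptic membrane (chr2:136713439-136782428), had 46656, 49876 and 55463 normalized counts in control and 26356, 29995 and 31159 in rNLS8 mice (-0.78, SE 0.052, adjusted p = 2.36e-09). Unc13a, a priming factor whose human transcript is known to be misspliced when nuclear TDP-43 is lost, was picked after its values had been seen and fell from 6345, 7142 and 7635 to 4458, 4738 and 4972 (-0.59, SE 0.046, adjusted p = 2.05e-08). Rims1, a scaffold of the active zone with a copy row, fell by 0.80 (SE 0.065, adjusted p = 2.84e-08), the vesicle protein Sv2c by 0.83 (SE 0.19, adjusted p = 0.00211) and Unc13c by 0.78 (SE 0.15, adjusted p = 0.000510). Snap25, Unc13a and Rims1 were apart between the groups, whereas Sv2c and Unc13c overlapped.

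Markers of excitatory neurons fell in 14 of 21 cases (66.7%) and rose in 1 (4.76%), compared with 19.8% and 19.3% of all genes. Their median was -0.28. Rgs4, a regulator of G protein signalling (chr1:169741477-169747642), had 8223, 9439 and 10305 normalized counts in control and 4446, 4917 and 5360 in rNLS8 mice (-0.92, SE 0.053, adjusted p = 6.65e-10). Nrgn, the calmodulin-binding neurogranin, fell from 18362, 21297 and 23409 to 10205, 12527 and 14652 (-0.75, SE 0.072, adjusted p = 2.21e-07), and Camk2a, the α subunit of CaMKII, from 70268, 80505 and 91068 to 43477, 48802 and 56119 (-0.67, SE 0.063, adjusted p = 1.72e-07). Rasgrf2 fell by 0.75 (SE 0.081, adjusted p = 9.00e-07). Not every marker passed the test. Slc17a7, chosen after its values had been seen, had medians of 32150 and 31386 (-0.03, SE 0.078, adjusted p = 0.791). With library size alone 8 excitatory markers fell. In bulk tissue, fewer cells of a type and less RNA per cell cannot be told apart.

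Markers of inhibitory neurons fell in 8 of 22 cases (36.4%), compared with 19.8% of all genes, with a median of -0.17. Members that fell included Vip at -0.44 (SE 0.11, adjusted p = 0.00343), Gad1, which makes GABA, at -0.42 (SE 0.075, adjusted p = 0.000228) and Pvalb at -0.33 (SE 0.095, adjusted p = 0.0102). The count of 8 was fragile. It was 4 with library size alone, when 3 others rose, and 0 in a test against a fold of 1.2. It was 5 without any 1 of control replicate 2 and rNLS8 replicates 1, 2, 3 and 6. Among neuropeptides and granins 14 of 28 (50%) fell and 1 (3.57%) rose, compared with 19.8% and 19.3% of all genes, with a median of -0.32. Nts (-1.15, SE 0.35, adjusted p = 0.0142) and Cartpt (-1.09, SE 0.30, adjusted p = 0.00756) overlapped between the groups. Tac1 fell by 0.85 (SE 0.30, adjusted p = 0.0298) and Penk by 0.75 (SE 0.27, adjusted p = 0.0359), and both lost this call on leaving out single mice. Markers of striatal medium spiny neurons varied between mice of both groups, with a summed level of 10378 to 34542 normalized counts in control and 13766 to 29145 in rNLS8 mice. Their mean log2 level was highest in control replicates 7 and 5 and, among rNLS8 mice, in replicate 1. None of the 12 striatal genes was called (0 also at an unadjusted p under 0.05 and with DESeq2), with a median of -0.16. Without rNLS8 replicate 1, 1 of them was lower and the median was -0.39. The part of striatal tissue in the values of Penk, Tac1 and the sodium channel subunit Scn4b (-0.82, SE 0.20, adjusted p = 0.00362) was not tested.

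Neuronal intermediate filaments diverged. Nefl, the light neurofilament (chr14:68083863-68089095), had 8391, 9063 and 9587 normalized counts in control and 3901, 4091 and 4800 in rNLS8 mice (-1.09, SE 0.051, adjusted p = 5.64e-11). Nefm fell by 0.42 (SE 0.082, adjusted p = 0.000447) and Nefh, whose promoter drives the transactivator, by 0.31 (SE 0.096, adjusted p = 0.0162), a call that was lost with library size alone. Ina, α-internexin, rose from 4029, 4354 and 4830 to 5160, 6038 and 7129 (0.45, SE 0.067, adjusted p = 2.77e-05). Nefl and Ina were each apart between the groups, in opposite directions. Stmn2, a tubulin-binding protein chosen after its values had been seen, fell by 0.44 (SE 0.045, adjusted p = 3.97e-07).

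Receptors and channels of neurons were more often lower than higher. Glutamate receptor genes fell in 9 of 22 cases (40.9%) and rose in 2 (9.09%), compared with 19.8% and 19.3% of all genes. With library size alone 7 fell and 5 rose. Members that fell included Gria3, an AMPA receptor subunit, at -0.71 (SE 0.062, adjusted p = 7.11e-08) and Grin2a, an NMDA receptor subunit, at -0.51 (SE 0.086, adjusted p = 0.000124). GABA receptor genes fell in 7 of 14 cases (50%), compared with 19.8% of all genes. Gabra3, a subunit of the GABA-A receptor, was at -0.39 (SE 0.052, adjusted p = 8.76e-06). With library size alone 3 of the GABA receptor genes fell and 1 rose. Of 71 potassium channel genes 27 (38.0%) fell and 8 (11.3%) rose, compared with 19.8% and 19.3% of all genes, with a median of -0.14. Of 35 calcium and sodium channel genes 20 (57.1%) fell and 2 (5.71%) rose, with a median of -0.24. Library size alone gave 14 falls and 7 rises among the calcium and sodium channels, and 22 falls and 11 rises among the potassium channels. Hcn3, a pacemaker channel, rose from 215, 277 and 332 to 468, 536 and 660 normalized counts (0.97, SE 0.095, adjusted p = 2.54e-07). Kcnv1, a modulatory potassium channel subunit, fell from 1971, 2264 and 2399 to 1184, 1285 and 1417 (-0.76, SE 0.054, adjusted p = 6.03e-09), and Cacna2d1, the α2δ1 subunit of calcium channels, by 0.63 (SE 0.068, adjusted p = 8.75e-07). These 3 were apart between the groups. Cacng6, a calcium channel subunit with a copy row, was low, with 20.0, 32.6 and 42.0 normalized counts in control and 4.68, 8.74 and 12.8 in rNLS8 mice, of which 3 were over the minimum of the filter.

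Genes known to hold many TDP-43 binding sites in long introns were tested as a list of 8. Of the 8, 3 (37.5%) fell and none rose, compared with 19.8% and 19.3% of all genes (at an unadjusted p under 0.05, 6 were lower and 0 higher, and DESeq2 called 2 and 0). In the decile of all genes with the longest genomic span 31.2% fell, and 41.3% of its genes above the median count. The list was thus near the share of long genes. Kcnd2, a potassium channel that spans the region chr6:21215346-21729805, fell from 1978, 2182 and 2374 to 1226, 1419 and 1616 normalized counts (-0.62, SE 0.063, adjusted p = 4.62e-07). Nrxn3, a presynaptic adhesion protein (chr12:88722701-90334935), fell by 0.49 (SE 0.059, adjusted p = 3.39e-06). Both were apart between the groups.

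Genes were then divided into deciles by their mean count and by their span on the genome. In the decile with the highest counts 46.9% of genes fell and 16.2% rose, whereas in the lowest decile 8.01% fell and 7.96% rose. In the decile with the longest span, from 125.24 to 2390.39 kb, 31.2% fell and 8.29% rose, compared with 15.8% to 19.4% lower in the 7 shortest deciles. Long genes also had higher counts, the median mean count rising from 86.1 in the shortest to 702 in the longest decile. Among genes above the median count 41.3% of the longest decile fell and 8.24% rose, compared with 21.7% to 32.1% lower in the other deciles above it. Below the median count 12.1% of the longest decile fell and 8.39% rose, and 8.94% to 15.1% fell in the other deciles, so there the longest genes were within the range of the others. With library size alone 21.9% of the longest decile fell and 16.9% rose, and in the decile of highest counts 34.3% fell and 25.2% rose. Divided by transcript length, the longest decile held 26.1% falls.

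**Figure D4:**
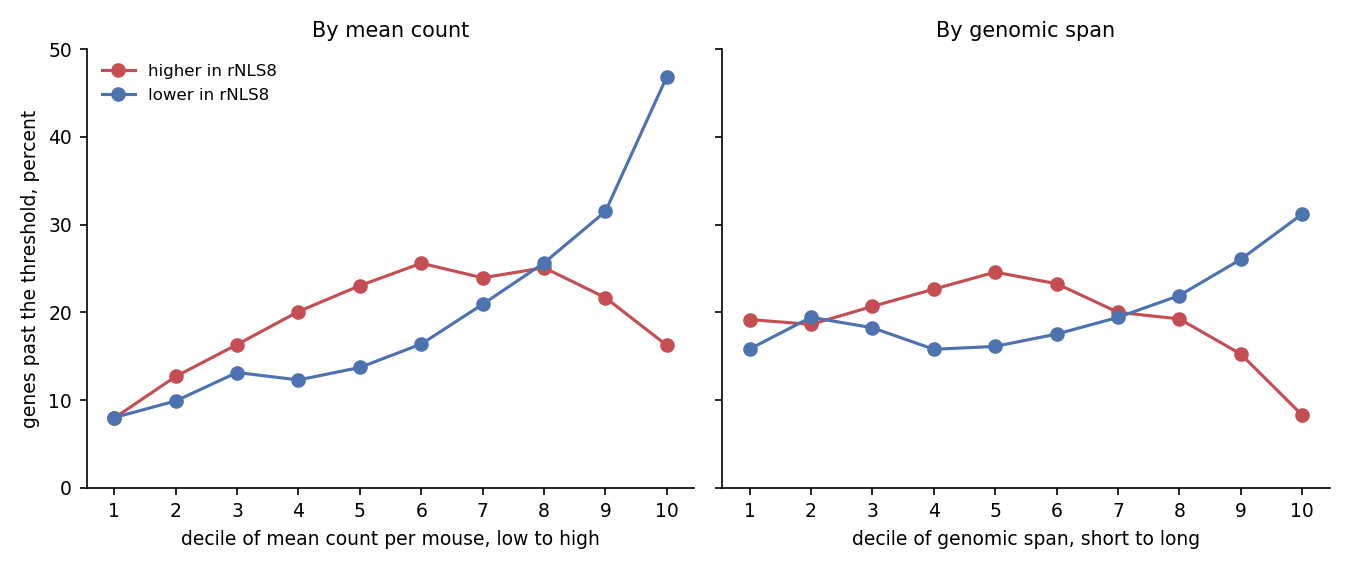
Share of tested genes called higher or lower in rNLS8 mice (percent, vertical axis) in deciles of genes by mean count (left) and by genomic span (right), each point 1 decile. Falls reach 46.9% in the decile with the highest counts and 31.2% in the longest decile.

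RNA-binding splicing factors, hnRNP and SR proteins among them, fell in 17 of 53 cases (32.1%) and rose in 6 (11.3%), compared with 19.8% and 19.3% of all genes. The median of -0.05 was 0.04 with library size alone, when 9 fell and 15 rose. Srsf5, a serine-rich splicing factor that controls its own mRNA (chr12:80945495-80950507), rose from 2166, 2888 and 2957 to 4488, 5093 and 5986 normalized counts (0.95, SE 0.074, adjusted p = 1.92e-08). Members of the list that fell included Elavl4 at -0.70 (SE 0.063, adjusted p = 1.00e-07), Rbfox1 at -0.66 (SE 0.042, adjusted p = 1.83e-09) and Nova1 at -0.56 (SE 0.054, adjusted p = 2.82e-07). Hnrnpa3, chosen after its values had been seen, fell by 0.44 (SE 0.043, adjusted p = 2.31e-07). These 5 were apart between the groups. Among 16 long noncoding RNAs 5 (31.2%) rose and 4 (25.0%) fell (5 and 1 with library size alone), with Neat1, the scaffold of nuclear paraspeckles, at 491, 1116 and 1280 normalized counts in control and 1235, 1834 and 2922 in rNLS8 mice (0.91, SE 0.19, adjusted p = 0.000750) and the imprinted Peg13 at 0.70 (SE 0.042, adjusted p = 9.29e-10). Neat1 overlapped between the groups and Peg13 did not. Of 46 nuclear pore and transport genes 10 (21.7%) rose and 11 (23.9%) fell, compared with 19.3% and 19.8% of all genes.

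Glycolytic enzymes fell in 11 of 17 cases (64.7%), compared with 19.8% of all genes. None rose (at an unadjusted p under 0.05, 1 was higher, and DESeq2 called 0), and the median was -0.21. Ldha, lactate dehydrogenase A, had 4879, 5595 and 5796 normalized counts in control and 3238, 3306 and 3887 in rNLS8 mice (-0.70, SE 0.047, adjusted p = 3.57e-09). Pgk1 fell by 0.57 (SE 0.048, adjusted p = 5.19e-08) and Ldhb by 0.48 (SE 0.047, adjusted p = 2.82e-07), and these 3 were apart between the groups. Nuclear genes of the respiratory chain and ATP synthase fell in 37 of 86 cases (43.0%) and rose in 4 (4.65%), compared with 19.8% and 19.3% of all genes. Their median was -0.10, and with library size alone 24 fell and 12 rose. In deciles 9 and 10 of all genes by mean count, 31.5% and 46.9% fell, and the part of count level in this list was not tested. Atp5g3, a subunit of the ATP synthase ring, fell from 4401, 4758 and 4854 to 3025, 3301 and 3588 (-0.49, SE 0.042, adjusted p = 4.98e-08). Of 13 mitochondrially encoded genes 4 (30.8%) fell, compared with 19.8% of all genes. Among the 4 were ND6 at -0.74 (SE 0.18, adjusted p = 0.00304) and ND2 at -0.35 (SE 0.081, adjusted p = 0.00216). The count of 4 was 9 without rNLS8 replicate 5 and 2 without any 1 of control replicates 5, 6 and 7 and rNLS8 replicates 2, 3, 4 and 7. The share of counts on the 13 genes was 7.52% ± 0.498 (SD, n = 7) in control and 7.27% ± 1.04 (SD, n = 7) in rNLS8 mice (exact permutation test, two-sided, p = 0.579). Fatty acid synthesis genes fell in 8 of 19 cases (42.1%) and rose in 2 (10.5%), compared with 19.8% and 19.3% of all genes. With library size alone 5 fell and 6 rose. Fasn was at -0.54 (SE 0.055, adjusted p = 4.37e-07).

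Degradation pathways differed. Lysosomal genes rose in 21 of 28 cases (75%) and fell in 2 (7.14%), compared with 19.3% and 19.8% of all genes, with a median of 0.23. Grn, progranulin, a gene of frontotemporal dementia, rose by 0.64 (SE 0.067, adjusted p = 5.49e-07), from 955, 1098 and 1184 to 1366, 1750 and 1861 normalized counts, and the protease Ctsd by 0.62 (SE 0.057, adjusted p = 1.51e-07), from 6184, 6941 and 7589 to 9361, 10636 and 12403. The groups were apart in both genes. Of 28 autophagy genes 6 (21.4%) rose and 6 (21.4%) fell, close to the 19.3% and 19.8% of all genes, and with library size alone 12 rose and 3 fell. Named members were the receptor Optn at 0.38 (SE 0.059, adjusted p = 5.08e-05), Becn1 at -0.42 (SE 0.036, adjusted p = 5.80e-08) and the ubiquitin shuttle Ubqln2 at -0.43 (SE 0.048, adjusted p = 1.09e-06). Of 33 proteasome subunits 6 (18.2%) rose and 6 (18.2%) fell, also close to these shares. The 6 rises were 15 with library size alone and 3 without any 1 of control replicate 6 and rNLS8 replicates 2, 3 and 4.

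Of 18 pan-myeloid genes 15 (83.3%) rose, compared with 19.3% of all genes. None fell (0 lower at an unadjusted p under 0.05 and with DESeq2), and the median was 0.45. Their summed level was 5681 to 6615 normalized counts in control and 6697 to 9496 in rNLS8 mice. On the mean log2 level rNLS8 replicate 1 was the lowest of its group. Genes of disease-associated microglia, a state found around lesions and dying neurons, rose in 14 of 21 cases (66.7%) and fell in 2 (9.52%). Over all genes these shares were 19.3% and 19.8%. The median of the list was 0.41. Among members with at least 10 counts in every mouse 11 rose. Cst7, a cystatin (chr2:150570415-150578944), had 0, 2.11 and 7.28 normalized counts in control and 14.8, 27.2 and 60.8 in rNLS8 mice. Itgax, an integrin subunit, had 1.05, 4.34 and 8.40 in control and 14.8, 31.8 and 39.6 in rNLS8 mice, and Clec7a, the receptor dectin-1, had 5.26, 7.35 and 17.9 and 28.7, 47.8 and 79.4. The groups were apart in the 3 genes, which passed the filter through the rNLS8 mice, with 0, 0 and 1 of 7 control mice over its minimum. Other members, chosen after their values had been seen, moved less, with Trem2 at 0.44 (SE 0.094, adjusted p = 0.00106), its adaptor Tyrobp at 0.39 (SE 0.11, adjusted p = 0.00739) and Gpnmb at 0.41 (SE 0.13, adjusted p = 0.0201).

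Among the other myeloid genes, Cd52 rose by 1.31 (SE 0.17, adjusted p = 6.82e-06), the oxidase subunit Cybb by 1.17 (SE 0.19, adjusted p = 0.000104), Tlr2 by 1.16 (SE 0.13, adjusted p = 1.92e-06), the protease Ctss by 0.77 (SE 0.078, adjusted p = 4.08e-07) and Ly86 by 0.71 (SE 0.085, adjusted p = 2.77e-06). Of 16 homeostatic microglia markers 3 (18.8%) rose and 1 (6.25%) fell, with a median of 0.06, the share of rises being close to the 19.3% of all genes. Sparc, which vessels also express, rose by 0.57 (SE 0.11, adjusted p = 0.000382), while the purine receptor P2ry12 fell by 0.30 (SE 0.069, adjusted p = 0.00232). Without rNLS8 replicate 1, 6 of the 16 rose, and with library size alone 7. Markers of monocytes and border macrophages rose in 1 of 9 cases and fell in 1, and of 19 lymphocyte markers 3 passed the filter, 1 higher and 2 lower. Interferon genes, 129 of 162 of which rose, moved with these lists, and their part in the myeloid values was not tested.

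Complement and acute phase genes rose in 10 of 15 tested cases (66.7%), compared with 19.3% of all genes. None fell (0 lower at an unadjusted p under 0.05 and with DESeq2), and the median was 0.46. Serpina3n, an acute phase protease inhibitor, had 216, 231 and 285 normalized counts in control and 426, 466 and 546 in rNLS8 mice (0.94, SE 0.078, adjusted p = 4.22e-08). It is on the list of reactive astrocyte genes as well, and the study uses it as a marker of disease-associated oligodendrocytes. Counts from bulk tissue do not show which cells made it. C4a rose by 1.60 (SE 0.23, adjusted p = 2.49e-05), with overlap between the groups. C3, which passed the filter through the rNLS8 mice, also overlapped.

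Reactive astrocyte genes rose in 11 of 26 cases (42.3%), compared with 19.3% of all genes. None fell (0 lower at an unadjusted p under 0.05 and with DESeq2), and the median was 0.24. Gfap, the astrocyte intermediate filament (chr11:102887336-102897200), had 2463, 3138 and 3464 normalized counts in control and 4098, 5773 and 8405 in rNLS8 mice (0.97, SE 0.12, adjusted p = 3.41e-06), without overlap. Vim rose by 0.58 (SE 0.088, adjusted p = 3.87e-05) and S100a6 by 0.56 (SE 0.095, adjusted p = 0.000117). Homeostatic astrocyte genes fell in 10 of 18 cases (55.6%), compared with 19.8% of all genes. None rose (0 higher at an unadjusted p under 0.05 and with DESeq2), and the median was -0.17. Members that fell included the ATPase subunit Atp1b2 at -0.34 (SE 0.052, adjusted p = 4.87e-05) and the glutamate transporter Slc1a2 at -0.31 (SE 0.069, adjusted p = 0.00158). Of the homeostatic genes, 4 fell with library size alone.

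On the lists used here, genes of oligodendrocytes and vessels differed little by this test. The oligodendrocyte lists do not hold C4b (1.97) and Serpina3n (0.94). Both rose, and the study counts both among markers of disease-associated oligodendrocytes. Mature oligodendrocyte and myelin genes rose in 1 of 23 cases and none fell (1 lower at an unadjusted p under 0.05, 0 with DESeq2), with a median of 0.05 and a summed level of 115325 to 166901 normalized counts in control and 109292 to 190336 in rNLS8 mice. The 1 rise became 0 without any 1 of control replicates 2, 3, 4 and 6 and rNLS8 replicates 1, 2 and 3, and 3 without rNLS8 replicate 4. With Xist as a covariate none rose and 1 fell. Oligodendrocyte precursor genes rose in 1 of 16 cases (6.25%) and fell in 1 (6.25%), compared with 19.3% and 19.8% of all genes. Library size alone gave 5 rises and no fall, and 2 rose without any 1 of control replicates 2, 4, 5 and 7 and rNLS8 replicates 4 and 6. Of 19 endothelial markers 1 (5.26%) rose and 1 (5.26%) fell. The count of rises stayed at 1 without control replicate 3, rNLS8 replicate 1 or rNLS8 replicate 2, was 2 without control replicate 5 and was 0 without any 1 of the other 10 mice, while the Y-linked covariate gave 0 higher and 3 lower. No pericyte gene of 14 was called (1 lower at an unadjusted p under 0.05, 0 with DESeq2). Among genes of endothelial activation Icam1, an adhesion molecule, rose by 0.96 (SE 0.14, adjusted p = 2.66e-05), from 39.0, 52.5 and 77.1 to 82.0, 98.4 and 125 normalized counts, and Lrg1 had 16.5, 24.8 and 32.2 in control and 0.965, 5.93 and 15.8 in rNLS8 mice, of which 3 were over the minimum of the filter. Both were apart between the groups.

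Genes of tissue next to the neocortex varied between mice. Choroid plexus and ependyma genes had summed levels of 772 to 11207 normalized counts in control and 2013 to 25035 in rNLS8 mice, and none of 13 was called (1 higher at an unadjusted p under 0.05, 0 with DESeq2), although all 13 fold changes were positive with a median of 0.63. Without control replicate 5, 2 of them were higher, and 1 without control replicate 7 or rNLS8 replicate 7. With Xist as a covariate 2 were higher, and 1 with the Y-linked covariate or library size alone. Ttr, the plasma carrier made by the choroid plexus, had 190, 4214 and 9669 normalized counts in control and 1315, 7728 and 22772 in rNLS8 mice (1.19, SE 0.71, adjusted p = 0.202). Thalamic genes, of which 1 of 8 rose and 1 fell, were highest in control replicate 2. Rora, a nuclear receptor, rose by 0.28 (SE 0.092, adjusted p = 0.0205), and Slc17a6, the vesicular glutamate transporter of thalamic neurons, fell from 556, 740 and 1099 to 252, 381 and 778 (-0.67, SE 0.21, adjusted p = 0.0153). Of 8 hippocampal genes 1 fell and none rose, and this was Wfs1, which fell by 0.84 (SE 0.12, adjusted p = 2.77e-05). Without rNLS8 replicate 5, 2 of the 8 fell, and with library size alone 1 fell and 1 rose. Labels and methods name neocortex and brain cortex, whereas a figure legend of the study names hippocampus, and these lists do not measure which share of each library came from another region.

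**Figure D5:**
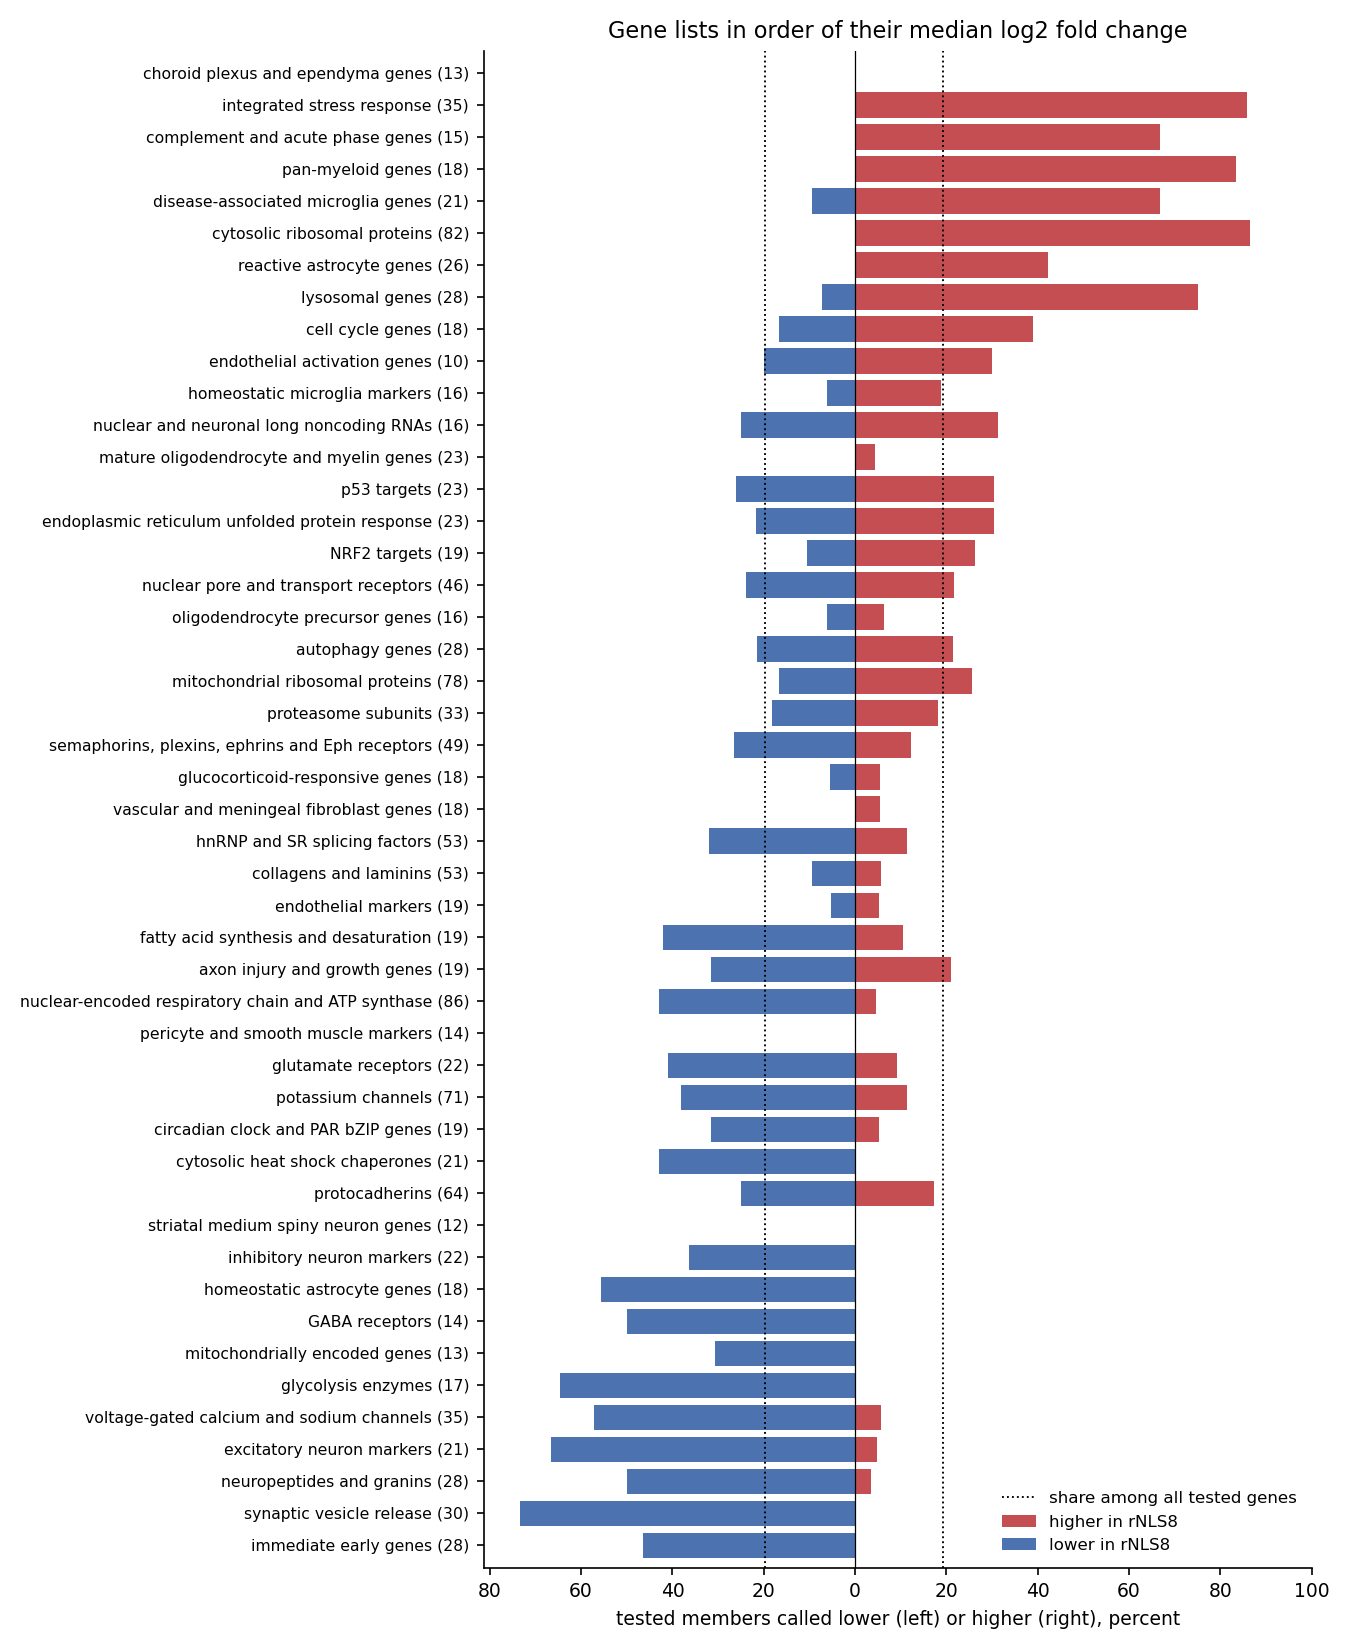
Share of the tested members of each gene list (percent) called lower (left of 0) or higher (right of 0) in rNLS8 mice, with lists in order of their median log2 fold change, the number tested in parentheses and dotted lines at the shares among all tested genes (19.8% lower, 19.3% higher). The longest bars to the right are those of cytosolic ribosomal proteins (71 of 82) and the integrated stress response (30 of 35), and the longest to the left is that of synaptic vesicle release (22 of 30).

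Some other lists showed changes in single members. Circadian clock and PAR bZIP genes fell in 6 of 19 cases (31.6%) and rose in 1 (5.26%), compared with 19.8% and 19.3% of all genes, and with library size alone 4 fell and 3 rose. Members that fell included the PAR bZIP factors Hlf at -0.61 (SE 0.060, adjusted p = 2.97e-07) and Tef at -0.48 (SE 0.047, adjusted p = 2.77e-07). Glucocorticoid-responsive genes rose in 1 of 18 cases and fell in 1, and 2 rose without control replicate 5 or with library size alone. Semaphorins, plexins, ephrins and their receptors rose in 6 of 49 cases (12.2%) and fell in 13 (26.5%), with a median of 0.00, and with library size alone 17 rose and 7 fell. Collagens and laminins rose in 3 of 53 cases (5.66%) and fell in 5 (9.43%). Protocadherins, adhesion proteins that give neurons an identity, fell in 16 of 64 cases (25.0%) and rose in 11 (17.2%), and with library size alone 11 fell and 14 rose. Pcdhga1 rose by 0.84 (SE 0.13, adjusted p = 4.34e-05) and was the first of 8 neighbouring genes of the γ cluster on chromosome 18 that were called higher in a row (median 0.44), whereas Pcdhb7 of the β cluster on the same chromosome fell by 0.73 (SE 0.085, adjusted p = 1.99e-06). Genes of the γ cluster share their last exons, so these rows may hold the same reads.

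The spread between mice within a genotype did not differ detectably between the genotypes. The root mean square distance of a mouse from the median of its own group, over log2 CPM of all tested genes, was 0.257 ± 0.0215 (SD, n = 7) in control and 0.245 ± 0.0313 (SD, n = 7) in rNLS8 mice, and the difference of -0.0121 gave p = 0.412 (exact permutation test, two-sided). The highest value was that of rNLS8 replicate 1. Without it the difference was -0.0268 (p = 0.0798 by the same exact test).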

How the data were processed

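Bulk RNA was sequenced from neocortex of 14 mice of batch B, 7 per genotype by their labels. Per the labels and the study's methods, RNA was extracted with the RNeasy Plus Mini kit and BGI mRNA libraries were read as paired ends. The authors deposited a table of raw read counts per gene symbol, aligned to GRCm38/mm10. Bowtie, Bowtie2, HISAT, HISAT2 and RSEM stand in the submitters' processing notes without role or version, and the counting program is not given in the sources used here. A symbol may recur as a numbered copy row; the 2553 such rows held 4.09% of counts, 981 of them were tested, and reads of a gene with a copy row may be divided. Positions and promoters came from RefSeq (GRCm38.p6), matched by symbol for 17239 tested genes, and transcript lengths from GENCODE M21.

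Counts were filtered in edgeR 4.0.16 (R 4.3.3) by filterByExpr (minimum count 10, total 15), scaled by TMM and tested with the quasi-likelihood test on genotype alone, with Benjamini-Hochberg adjustment at 0.05. The study's methods name DESeq2 without a covariate, and DESeq2 1.42.0 was run as an alternative. SE was the absolute log2 fold change over the square root of F. Log2 CPM had a prior count of 2. Comparisons of single values used exact permutation tests. The scripts were tested on simulated data. The comparison, its gene lists and the tests were chosen with earlier results of these data known. Genes were named by a rule: the 15 largest rises and falls with a mean of at least 50 counts, the 5 smallest p-values per direction, up to 4 called members per list with the largest change (or the 2 most abundant where none was called), and Tardbp, Xist and Y-linked genes. The first 2 parts leave out interferon and cholesterol genes, copy rows and provisional symbols. Genes outside it are said to have been chosen after their values were seen, and a few genes that it names are not reported here. Alternatives were another tool, 3 scalings, 2 filters, Xist as a covariate, a fold threshold of 1.2, leaving out copy rows and leaving out each mouse, and a Y-linked covariate was added after the data had been seen. The labels give a number per mouse and no litter, extraction date or sequencing lane.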

Additional observations from a re-analysis of the deposited data

Results flagged for a closer look

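In each group of 7 mice the highest and the lowest value were compared with their neighbour, as the gap over the whole range, for each gene reported and each list mean. Of 446 groups, 29 had a gap above Dixon's 95% critical value for 7 samples, where chance alone flags about 1 in 20 groups, or 22.3. Of the 29, 6 concerned rNLS8 replicate 1, 5 control replicate 5 and 5 rNLS8 replicate 2.

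rNLS8 replicate 1, the mouse without Xist and Y-linked counts, was highest of its group for Tac1 (728 normalized counts, next 469, gap ratio 0.650), Penk (4175, next 2721, 0.648), Scn4b (5595, next 3299, 0.670), Top2a (49.4, next 38.4, 0.617) and H2bc6 (209, next 160, 0.648), and lowest for Ctss (1535, next 2158, 0.702). rNLS8 replicate 2 was highest for Pycr1 (265, next 187, 0.736), Zfp180 (5239, next 4746, 0.750), Rps2 (13139, next 9866, 0.855) and Shmt2 (933, next 757, 0.574), and lowest for Gria3 (2235, next 2588, 0.609). Other rNLS8 mice stood out for 1 gene each, replicate 3 for Bc1 (256, next 137, 0.681), replicate 4 for Ldha (3887, next 3515, 0.573) and replicate 5 for Zfp976 (154, next 107, 0.686).

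Among controls, replicate 5 was highest for Egr2 (337, next 126, 0.723), Egr1 (8235, next 5351, 0.652) and C3 (39.3, next 18.9, 0.582) and for the means of glucocorticoid-responsive genes (next 4.77 log2 CPM, 0.629) and reactive astrocyte genes (2.64, next 2.49, 0.740). Control replicate 2 was highest for Slc17a6 (1099, next 758, 0.628) and for the means of thalamic genes (5.17 log2 CPM, next 3.94, 0.754) and of neutrophil and red cell markers (5.60, next 4.16, 0.597). Control replicate 1 was highest for Hlf (5561, next 4749, 0.592) and Elavl4 (1992, next 1679, 0.575) and lowest for the mean of lymphocyte markers (2.14 log2 CPM, next 2.70, 0.596). Control replicate 6 was highest for Mki67 (45.6, next 18.9, 0.779) and lowest for Ldha (4879, next 5484, 0.660) and Aars (3132, next 3600, 0.593). Control replicate 7 was highest for Clec7a (17.9, next 9.77, 0.643).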

How the results depend on the processing

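No gene was called in opposite directions by any alternative. Against 7126 calls, DESeq2 made 7158, and leaving out single mice gave 6646 to 6984 (3246 to 3436 higher, 3400 to 3548 lower). Library size alone gave 5313 higher and 2347 lower, the TMM factors of the genotypes being apart. A test against a fold of 1.2 in either direction left 1962 genes, 1022 higher and 940 lower, by its own construction, and so 4 excitatory markers, 14 synaptic vesicle, 3 glycolysis and 4 respiratory chain genes lower and 9 disease-associated microglia, 9 lysosomal and 40 ribosomal protein genes higher. At this fold no marker of inhibitory neurons was called. With library size alone 8 excitatory markers and 24 respiratory chain genes fell, and medians of the lists of axon injury, glucocorticoid, endothelial, fibroblast, splicing factor, collagen and fatty acid genes changed sign. The share of falls in the longest decile was 26.1% by transcript length, in place of 31.2% by span.

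Leaving out single mice gave 70 to 75 ribosomal protein, 14 to 16 microglia, 28 to 30 integrated stress response and 18 to 21 lysosomal genes higher, and 11 to 14 excitatory, 12 to 14 immediate early, 33 to 40 respiratory chain and 22 to 23 synaptic vesicle genes lower. The spread between mice within a genotype differed by -0.0268 to 0.00204, being 0.00204 without control replicate 1 and 0.00041 without control replicate 5; the cause was not tested.

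Of the genes reported, the log2 fold change of Slc17a7 changed sign with library size alone (0.0546) and ranged from -0.0804 to 0.0173 on leaving out single mice, 0.0173 being without control replicate 2, and the log2 fold change of Vldlr was 0.0156 with library size alone; neither was called in any fit. The log2 fold change of Penk lost its call with DESeq2 (adjusted p = 0.0800), library size alone (0.0562) and Xist as a covariate (0.0711), and on leaving out control replicate 3, 5 or 7 or rNLS8 replicate 2, 3, 4, 5 or 6. The log2 fold change of Tac1 lost it without control replicate 5 or 7 or rNLS8 replicate 2, 3, 4 or 6, and the log2 fold change of Nefh with library size alone (0.0721). The log2 fold change of Hspa5 was called without control replicate 6 (edgeR adjusted p = 0.0472). The Y-linked covariate gave 7022 calls. No paired analysis was run, because the labels give mouse numbers and no pair or litter shared between genotypes. The mouse numbers fell in separate ranges that hold both genotypes, and no fit with these ranges as blocks was run. At 20700912 to 22263809 counts per mouse, genes in the lowest decile of counts were called least often.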

Other observations

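Runs of neighbouring tested genes called in the same direction were listed across the genome, without a test. Of the runs without genes of the interferon list, the longest had 8 genes. At chr14:3332010-3969145, 8 genes with provisional symbols were higher (median 0.71); these are similar copies, so reads may be shared among them. At chr2:26593057-26920187, 8 genes from Agpat2 to Surf2 were higher with a median of 0.29, among them Rpl7a, a ribosomal protein, and Snhg7. At chr2:177190575-177840336, 7 genes around the zinc finger gene Zfp970 were higher with a median of 0.63. A run of 6 lower genes lay at chr1:87476829-87945177, from Ngef to Dgkd, with a median of -0.34. At chr3:96238479-96293969, 5 replication histone genes and Fcgr1, an Fc receptor gene of the interferon list, were higher with a median of 0.89.

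Of 1472 tested long noncoding genes as annotated by RefSeq, 9.38% were higher and 14.7% lower, compared with 19.3% and 19.8% of all genes. Their median mean count was 25.3, and the part of this low level in the difference was not tested.

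In rNLS8 replicate 1, which had no counts of Xist and of the 4 Y-linked genes, Eif2s3x, an X-linked gene that escapes inactivation, had 2505 normalized counts, compared with 3805 in rNLS8 replicate 5, the rNLS8 mouse with Xist, and 2196 to 2395 in the other 5. Ddx3x had 5476 in rNLS8 replicate 1, 6754 in rNLS8 replicate 5 and 4458 to 5053 in the other 5, and Kdm5c had 1386, 1749 and 1275 to 1444. Kdm6a had 628, 806 and 498 to 590. What sets this library apart was not tested.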
